A study of Zea mays with 3 samples.

Results

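In roots of maize plants under the Urea+NBPT treatment, 123 transcripts of 116 genes stood more than 1 higher on the log2 scale in replicate 3 than in the mean of replicates 1 and 2. They are 0.332% of the 37099 transcripts detected on all 3 arrays, out of 59756 on the array. A transcript's level is the mean log2 intensity of its 2 or 3 probes, and detection asked for a level over the 95th percentile that the 1663 random control probes reached, in each replicate. This percentile lay at 8.16 in replicate 3, and at 8.15 and 8.22 in replicates 1 and 2. The difference between replicate 3 and the mean of the other two, called the excess from here on, chose the transcripts, so it is given as a description without a test. The level of a transcript was compared between replicates and not with that of another transcript, since probes differ in how strongly they bind.

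All 3 replicates came from one group. Plants of maize cv. PR33T56, a cultivar that the labels list as a hybrid and the methods as an inbred, were 5 days old when they entered a nutrient solution with 0.5 mM urea and 0.897 µM NBPT, an inhibitor of the enzyme urease. Their roots were frozen after 8 h, 6 plants to a pool, and each pool came from an experiment of its own. The Urea arrays were not analysed here, so the levels below say how replicates under one treatment differed and not what NBPT did.

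The members with a known gene name are few, and they belong to several processes. Plants make small proteins that block digestive proteases of insects and microbes, and in maize some of their genes are switched on by wounding. Isocitrate lyase and lysine-ketoglutarate reductase/saccharopine dehydrogenase break down stored carbon and lysine, and benzoxazinoids are defence compounds of grasses that are made from indole. In RNA from whole roots, more cells of a type and more RNA per cell cannot be told apart.

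In the members, the level had a median of 11.11 in replicate 3 with a range of 9.37 to 13.58, against 9.47 (8.23 to 12.22) in replicate 1 and 9.57 (8.28 to 13.11) in replicate 2. The mean of replicates 1 and 2 had a median of 9.55 in the members, beside 10.64 in all detected transcripts. The rule subtracts this mean and so favours low values of it, and probes differ between transcripts, so nothing is read from these medians. Replicate 3 was the highest of the 3 in 121 members, and it exceeded both others by more than 1 in 63. The excess ran from 1.0001 to 3.32 with a median of 1.22, and it passed 1.5 in 26 members and 2 in 12. Over all detected transcripts its median was 0.01, and 95% of them lay between -0.65 and 0.59.

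**Figure D1:**
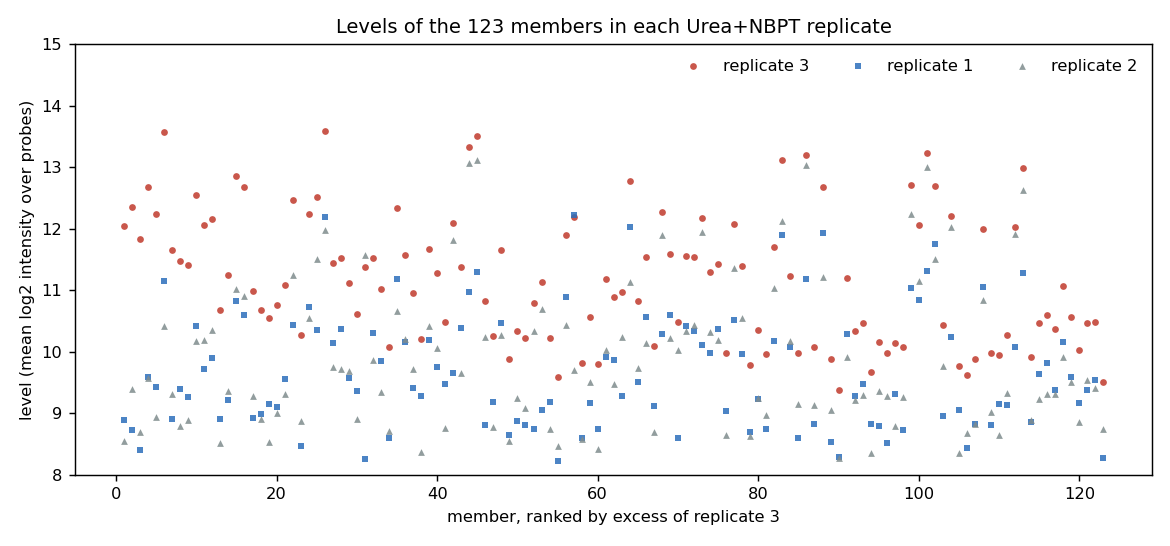
Level (mean log2 intensity over probes) of each of the 123 members in replicate 3, replicate 1 and replicate 2, with members ranked by their excess from left to right. Replicate 3 is on top in 121 members, and its distance to the mean of replicates 1 and 2 shrinks from left to right, as set by the ranking.

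The same rule applied to the other arrays took 68 detected transcripts in replicate 1 (0.183%) and 700 in replicate 2 (1.89%), so replicate 3 did not hold the most. Replicate 3 was more than 1 below the other two in 244 transcripts (0.658%). Set against replicate 2 alone, replicate 3 was more than 1 higher in 220 transcripts, and 87 of the members were among them. Set against replicate 1 alone, 249 transcripts passed, with 99 of the members. All 3 arrays lay on 1 slide, and across genes their transcript levels correlated at 0.988 between replicates 3 and 1, 0.975 between replicates 3 and 2, and 0.977 between replicates 1 and 2. Genes are not independent replicates, so no p is given.

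The tissue of the samples was checked with marker genes. Of the root symbols sought, 4 were found and all 4 had a detected transcript. They were rth3, a root hair gene, at 12.75, nas2, a nicotianamine synthase, at 11.93, ys1, an iron transporter, at 10.65, and rtcs1, a gene of shoot-borne root formation, at 10.56. These are means over the replicates, and the excess of these transcripts lay between -0.45 and 0.18. Of the leaf symbols 3 of 4 had a detected transcript, with ppdk1 the highest at 14.53, pep1 at 10.71 and me3 at 8.55, while the Rubisco small subunit gene rbcs1 did not pass. The pollen gene expb1 was not detected either, and bt2 alone of 3 endosperm genes was, at 9.66.

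Each member rests on few probes, 92 on 2 and 31 on 3. That makes 277 probes, of which 180 (65.0%) had an excess above 1, 38 an excess above 2.5 and 18 an excess below 0. Of the 84845 probes of all detected transcripts 0.715% had an excess above 1. In 40 members every probe exceeded 1, in 35 the lowest probe lay between 0.5 and 1, and in 48 at least 1 probe lay below 0.5. The median excess was 1.23 where every probe exceeded 1, 1.08 where the lowest lay between 0.5 and 1, and 1.40 where a probe lay below 0.5. Only 1 probe was above 1 in 74 members. With the probe of the largest excess left out of every transcript, a calculation added after the values had been seen, 42 of the 123 kept an excess above 1. That step can only lower the excess, and the 40 members with every probe above 1 pass it by definition.

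**Figure D2:**
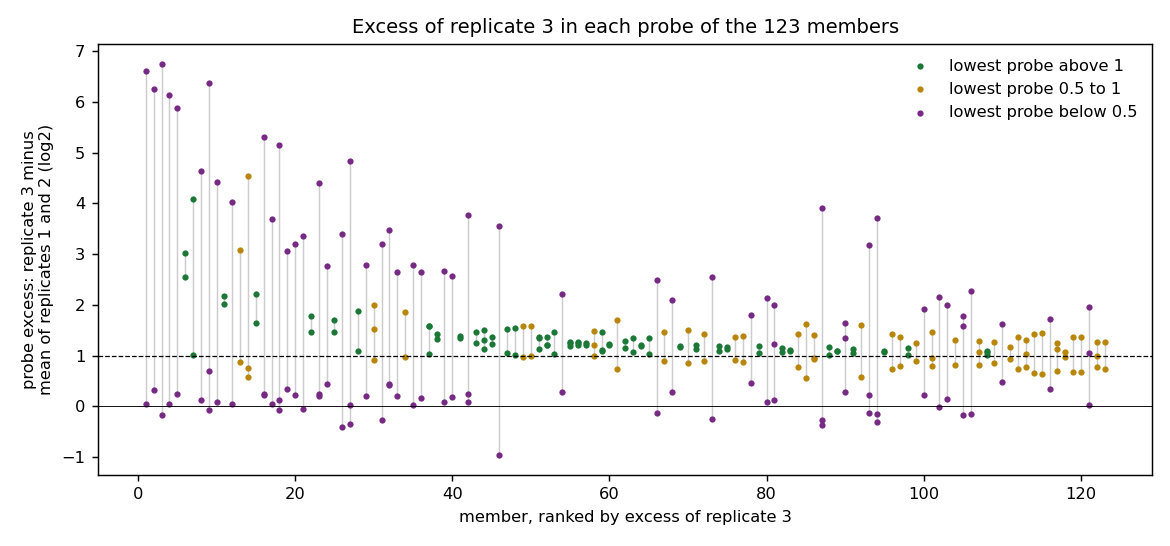
Excess of replicate 3 in each probe of the 123 members (replicate 3 minus the mean of replicates 1 and 2, log2), members ranked by excess, probes of a member joined by a grey line and coloured by the member's lowest probe. At the left end the highest probes reach 6.75 while their partners lie near 0, and in the middle of the ranking the probes of many members lie together between 1 and 2.

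The 12 members of largest excess were mostly of the divided kind, since 9 of them had a probe below 0.5. GRMZM2G139462_T03 had 12.05 in replicate 3, against 8.89 and 8.56 in replicates 1 and 2, an excess of 3.32. One of its probes carried the difference, with an excess of 6.60, while the other had 0.05. GRMZM2G700614_T01 reached 12.35 in replicate 3 and stood at 8.72 and 9.40 in replicates 1 and 2, an excess of 3.29 with probes at 6.26 and 0.32. GRMZM2G177970_T01 measured 11.84 in replicate 3, against 8.40 in replicate 1 and 8.70 in replicate 2. Its probes differed in sign, at 6.75 and -0.18. GRMZM2G010163_T02 (12.67 in replicate 3, 9.58 and 9.57 in replicates 1 and 2) and GRMZM2G149553_T01 (12.23, against 9.43 and 8.93) followed with excesses of 3.10 and 3.05, and in each of them a single probe stood near 6. GRMZM2G073376_T02, GRMZM2G046186_T01, GRMZM5G803685_T01 and GRMZM2G022711_T02 had the same division, with excesses of 2.38, 2.33, 2.25 and 2.04.

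The remaining 3 of these 12 were higher in replicate 3 in every probe. GRMZM2G170602_T01 had 13.57 in replicate 3, against 11.16 in replicate 1 and 10.41 in replicate 2, an excess of 2.78, and its probes gave 3.02 and 2.54. It was the member with the largest excess in the class where all probes passed 1, and the reference table holds no gene under its identifier. GRMZM2G090245_T02 had 12.05 in replicate 3, with 9.71 and 10.20 in replicates 1 and 2, and its probes gave 2.18 and 2.02. Its gene matched 2 reference genes and was left without a name. GRMZM2G127379_T01 had 11.65, against 8.90 and 9.31, with an excess of 4.08 in one probe and 1.01 in the other. No replicate 1 or 2 value of these 3 transcripts came within 1 of the replicate 3 value.

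Among members with a gene name, 2 genes for protease inhibitors that are induced by wounding stood near an excess of 2. The transcript of MPI, also called sci1, the maize proteinase inhibitor, was GRMZM2G028393_T01. It had 12.85 in replicate 3, against 10.82 in replicate 1 and 11.02 in replicate 2, an excess of 1.93 (SD of the 3 replicates 1.12). Both probes shared it, at 1.64 and 2.21, and the second transcript of the gene, GRMZM2G028393_T02, which was not detected, also had its highest value in replicate 3, at 8.23 against 7.05 and 7.08. The transcript of wip1, a wound-induced inhibitor of the Bowman-Birk type, was GRMZM2G156632_T01. It had 10.68 in replicate 3, against 8.90 and 8.52 in replicates 1 and 2, an excess of 1.97 with probes at 0.87 and 3.07. Replicate 2 minus replicate 1 was 0.21 for MPI and -0.39 for wip1, where the median absolute difference of all detected transcripts was 0.24. In both genes replicates 1 and 2 lay more than 1 below replicate 3. The 8.52 of wip1 in replicate 2 was not far above the detection limit of 8.22.

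Other genes of wounding and defence were looked at by symbol, in lists that were made after these values had been seen. Of 23 detected transcripts of wound and defence proteins, 4 had an excess above 0.5, among them the 2 members, and 1 lay below -0.5. Over all detected transcripts 4.12% had an excess above 0.5. The other 2 were cystatin6, a cysteine protease inhibitor (GRMZM2G401328_T01, 9.14 in replicate 3, against 8.25 and 8.23), with 0.91, and rip2, a ribosome-inactivating protein (GRMZM2G119705_T01), with 0.55. The one below was a cystatin transcript, GRMZM2G438551_T02, with -0.56. The median of the list was 0.18, and 0.14 without the 2 members, beside 0.01 for all detected transcripts. In replicate 2 cystatin6 lay just above the detection limit of 8.22.

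Jasmonate is the hormone that carries the wound signal in plants. A list for its synthesis and signalling had 49 detected transcripts, with 0 members. Genes were listed by symbol alone, so a listed gene need not act in jasmonate synthesis. The list is too short to read anything from that count where members are 0.332% of all detected transcripts. The median excess of these 49 transcripts was -0.01, and 5 lay above 0.5. They were the 3 transcripts of opr5, an oxophytodienoate reductase gene, with 0.55, 0.53 and 0.77 for GRMZM2G087192_T01, T02 and T03, and TIFY25 (0.53) and TIFY6 (0.60), genes of the family that holds the JAZ repressors. The heat shock proteins, 16 detected transcripts, had a median of -0.04 and 0 members, to which the same applies.

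Bx1 makes the indole from which benzoxazinoids are built, and its transcript GRMZM2G085381_T03 was a member. It had 9.98 in replicate 3, against 8.61 in replicate 1 and 9.16 in replicate 2, an excess of 1.10 with probes at 0.56 and 1.63. The other 2 transcripts of bx1 had smaller excesses, 0.43 for GRMZM2G085381_T01 and 0.30 for GRMZM2G085381_T02. GRMZM2G085381_T03 was the single member among 20 detected transcripts of benzoxazinoid and indole synthesis, whose median was 0.12, or 0.10 without it. The median of all detected transcripts was 0.01, and members are 0.332% of them. This list was also made after the values had been seen, and it is too short to read anything from its count.

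The genes for isocitrate lyase, the glyoxylate cycle enzyme that splits isocitrate, and for lysine breakdown had members that were higher in all probes. The icl1 transcript GRMZM2G056369_T01 had 10.96 in replicate 3, against 9.41 and 9.72 in replicates 1 and 2, an excess of 1.39. Its 3 probes gave 1.02, 1.58 and 1.57, all above the threshold for the transcript. The lkrsdh1 transcript GRMZM2G181362_T01 had 12.07 in replicate 3, against 10.51 in replicate 1 and 11.36 in replicate 2, an excess of 1.13 with probes at 0.88 and 1.39. Replicate 2 lay between the other two there, and of the undetected transcripts GRMZM2G181362_T05 had the same order, with 8.66 in replicate 3, 6.88 in replicate 1 and 7.44 in replicate 2. GRMZM2G181362_T04, also undetected, had an excess of 0.22. The other transcript of icl1, GRMZM2G056369_T02, was not detected and did not share the order, with 6.30 in replicate 3, against 6.24 and 6.36. A list of 3 glyoxylate cycle and lysine breakdown genes was made after these values had been seen. It had 4 detected transcripts, of which these members are 2, and the median excess without them was 0.28. Members are 0.332% of all detected transcripts, but a list made in this way sets its own count, so nothing is read from it.

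ZCN2, of the family of FT-like and TFL1-like flowering regulators, had a transcript (GRMZM2G156079_T01) at 10.21 in replicate 3, against 9.29 and 8.37 in replicates 1 and 2. Its excess of 1.38 was shared by both probes, at 1.43 and 1.32, and replicate 2 was the lowest. The undetected GRMZM2G156079_T02 had an excess of -0.05. The gene named Laccase-17, of the copper oxidases that take part in lignin formation, had GRMZM2G305526_T01 at 10.09 in replicate 3, against 9.12 and 8.69, with probes at 0.90 and 1.47. It was 1 of 10 detected transcripts in a list of laccases that was also made after the values had been seen. Their median was 0.16, and lac5 (GRMZM2G367668_T01) was the only other one above 0.5, with 0.58. Of the 20 keyword lists that were searched in gene symbols and synonyms, 11 held any gene, and only the cell wall list held a member, which was this laccase. The cell wall list had 7 detected transcripts and the longest, transcription factors, had 159, where members are 0.332% of all detected transcripts. Such counts are too small to read anything from. Names without a keyword were missed, since the transcription factor and defence lists held 0 members. GATA31, described below, and MPI and wip1 were members all the same.

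In other named members the difference sat mainly in 1 probe. The transcript of ae1, the starch branching enzyme IIb that is best known from the endosperm, was GRMZM2G032628_T01, with 11.24 in replicate 3 against 9.22 and 9.36 in replicates 1 and 2. Its probes had excesses of 4.53, 0.57 and 0.75. GRMZM2G026223_T03 of ZAGL1, a MADS-box gene, had 11.09, against 9.56 and 9.31, with probes at 3.35 and -0.04, and 5 other detected transcripts of the gene lay between -0.36 and -0.05. GRMZM2G067171_T01 of GATA31, a GATA transcription factor, had 3.18, 0.21 and -0.14 in its probes. The gene named Actin-7 had GRMZM2G067985_T15 at 12.70, against 11.74 and 11.51, with probes at 2.16 and -0.02, while its other detected transcripts lay between -0.70 and 0.38. GRMZM2G025123_T02 of TATC, of the twin-arginine protein export machinery, had probes at 2.21 and 0.29, and GRMZM2G479423_T05 of AR1 had 1.997 and 0.13.

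**Figure D3:**
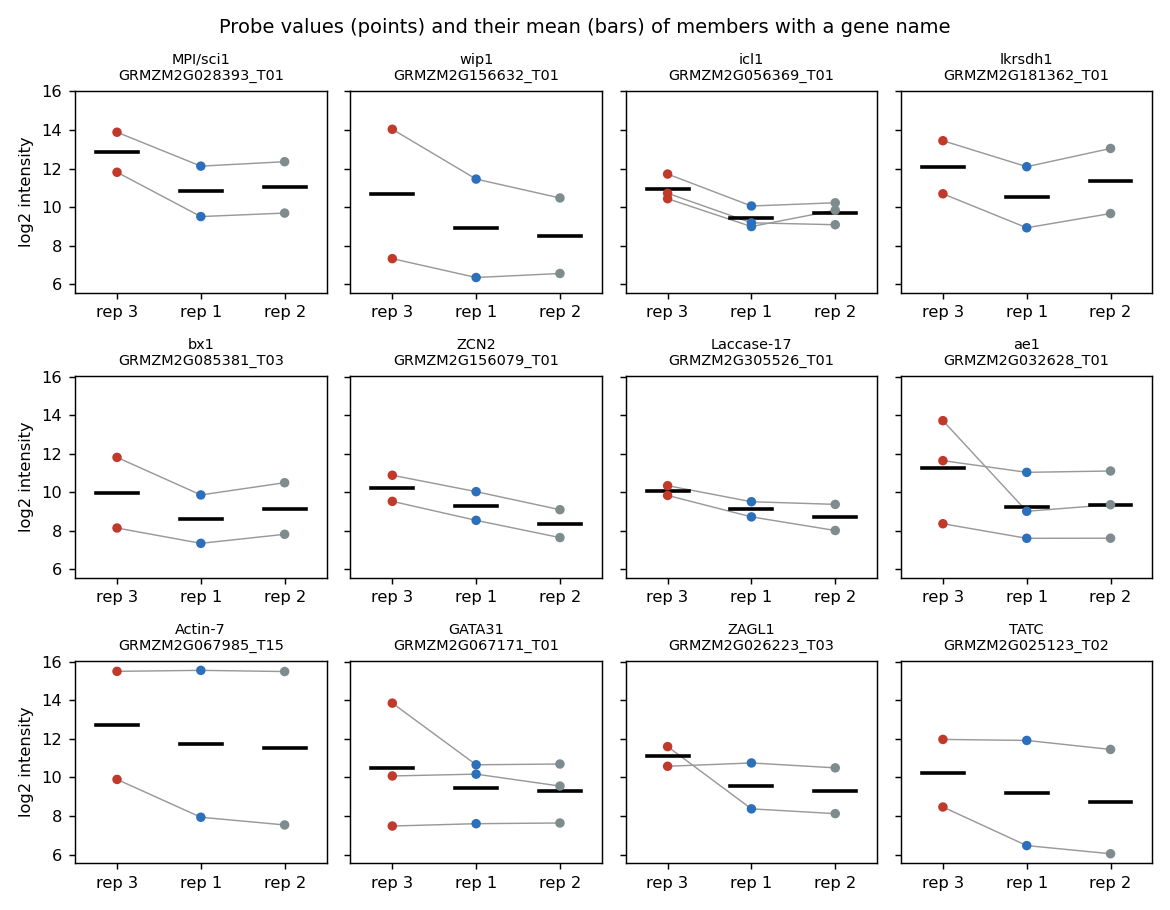
Log2 intensity of each probe (points, joined by a line) and the transcript's mean (black bar) in replicate 3, replicate 1 and replicate 2 for 12 members with a gene name. In MPI/sci1, icl1, ZCN2 and Laccase-17 the lines fall alike between replicate 3 and the others, while in Actin-7, GATA31 and ZAGL1 1 probe is high in replicate 3 and at least 1 other is level.

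The members named for their value in replicate 3 were GRMZM2G170602_T01, described above, GRMZM2G138349_T03 and GRMZM2G133032_T01, a choice that does not rank their RNA. GRMZM2G138349_T03 had 13.58 in replicate 3, against 12.19 and 11.97, and its difference came from 1 probe, with probes at 3.40 and -0.40. GRMZM2G133032_T01 had 13.50 in replicate 3, 11.30 in replicate 1 and 13.11 in replicate 2, with probes at 1.37 and 1.23. There replicate 2 was close to replicate 3, and replicate 1 was the low one.

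That order was found in more members than this one. The rule favours such a spread, since 1 low replicate lowers the mean that replicate 3 is set against. Replicates 1 and 2 were more than 1 apart in 14.6% of the members and in 2.78% of all detected transcripts. Replicate 2 was above replicate 1 in 17 of these members, and replicate 1 was above replicate 2 in 1. All detected transcripts leaned the same way, with 767 and 263. GRMZM2G048962_T01 had 13.33 in replicate 3, 10.97 in replicate 1 and 13.06 in replicate 2, and its 3 probes all had an excess above 1. GRMZM2G018756_T01 had 12.52, against 10.36 in replicate 1 and 11.51 in replicate 2. The single member of the opposite kind was GRMZM2G386674_T01, with 12.19 in replicate 3, 12.22 in replicate 1 and 9.70 in replicate 2. In each of these 3 members one of the other replicates lay nearer to replicate 3 than to the lowest. They were picked as examples after their values had been seen.

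For 28 member genes another detected transcript was on the array, 61 in all, and for 72 genes the array held no other transcript. The median excess of these 61 was 0.06, with 5 above 0.5 and 38 above 0. It differed with the members' probes, at 0.63 over 6 transcripts where all probes of the member exceeded 1, 0.42 over 8 where the lowest lay between 0.5 and 1, and 0.01 over 49 where a probe lay below 0.5. A transcript can be counted in more than 1 of these classes, and transcripts of a gene can share sequence.

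**Figure D4:**
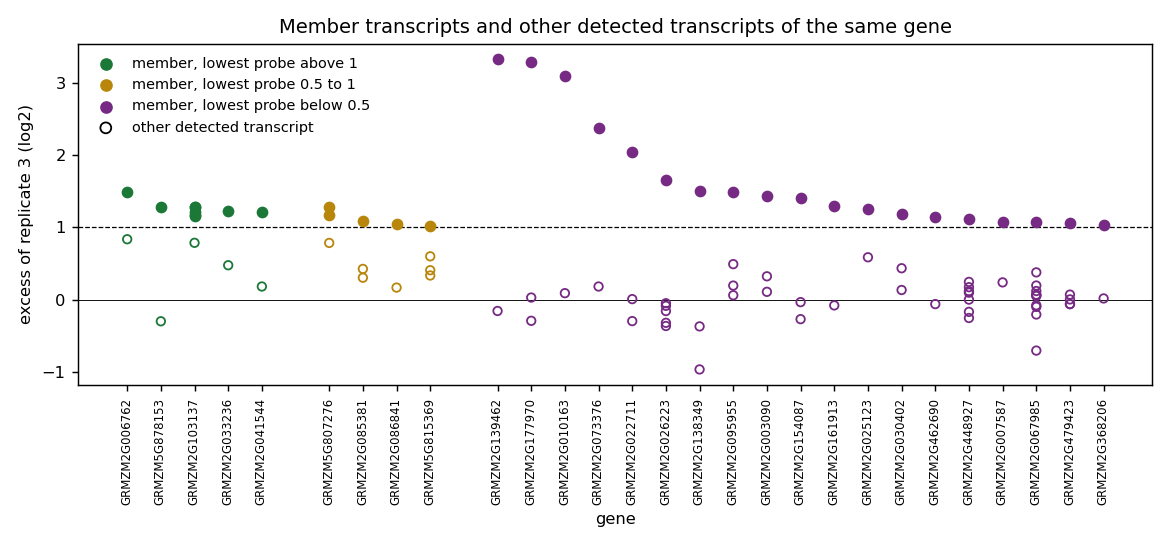
Excess of replicate 3 (log2) in member transcripts (filled) and other detected transcripts of the same gene (open), for the 28 genes that had both, grouped by the lowest probe of a gene's top member. Other transcripts lie mostly above 0 in the first 2 groups and around 0 in the last.

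Of 4 genes with more than 1 member, GRMZM2G103137 had the most. Its transcripts T03 to T07 had excesses of 1.16 to 1.28. GRMZM2G103137_T05, for instance, had 11.65 in replicate 3, against 10.46 and 10.27. GRMZM2G103137_T02 lay below the threshold with 0.79, and the undetected GRMZM2G103137_T01 had 1.32. GRMZM5G807276_T03 and GRMZM5G807276_T01 had 1.28 and 1.18, and GRMZM5G807276_T02 had 0.79. GRMZM2G055238_T01 and GRMZM2G055238_T02 had 1.20 and 1.09, and GRMZM2G125747_T01 and GRMZM2G125747_T02 had 1.28 and 1.08. All detected transcripts of these 4 genes were highest in replicate 3. As 11 of them are members, which were chosen for a high replicate 3, this was largely set by the rule. Transcripts of a gene can also share sequence.

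The places of the probes on the array were also compared. Among the 48 members with a probe below 0.5, the probe of largest excess had a probe of another transcript with an excess above 2.5 within 2 steps in 15 (31.2%). The same held for 1 of 40 and 0 of 35 members in the other classes, for 1.28% of all probes and for 19.3% of the 166 probes above 2.5. The median excess of the probe of largest excess was 3.12 in the first class, and 1.35 and 1.42 in the others. The shares of the classes therefore compare probes of unlike excess. The high probes of GRMZM2G139462_T03 and GRMZM2G177970_T01 were diagonal neighbours, at column 235, row 491 and column 234, row 492. Those of GRMZM2G046186_T01 and GRMZM2G700614_T01 were diagonal neighbours as well, next to a probe of GRMZM2G047139_T03, which is no member, with 5.61. Another group, picked after its values had been seen, held probes of the members GRMZM2G007201_T02, GRMZM2G462690_T02 and GRMZM2G105999_T01. There replicate 1 was low, at 4.99, 6.58 and 4.96, while replicate 3 had 11.68, 10.93 and 12.12, and replicate 2 had 11.96, 10.18 and 11.75. The part that position on the array has in these values was not tested. Of the random control probes, 24 (1.44%) had an excess above 1, beside 1.38% of all transcript probes. Above 2.5 there were 6 of the 1663 random probes and 160 of the 139000 transcript probes, a higher share among the random probes.

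**Figure D5:**
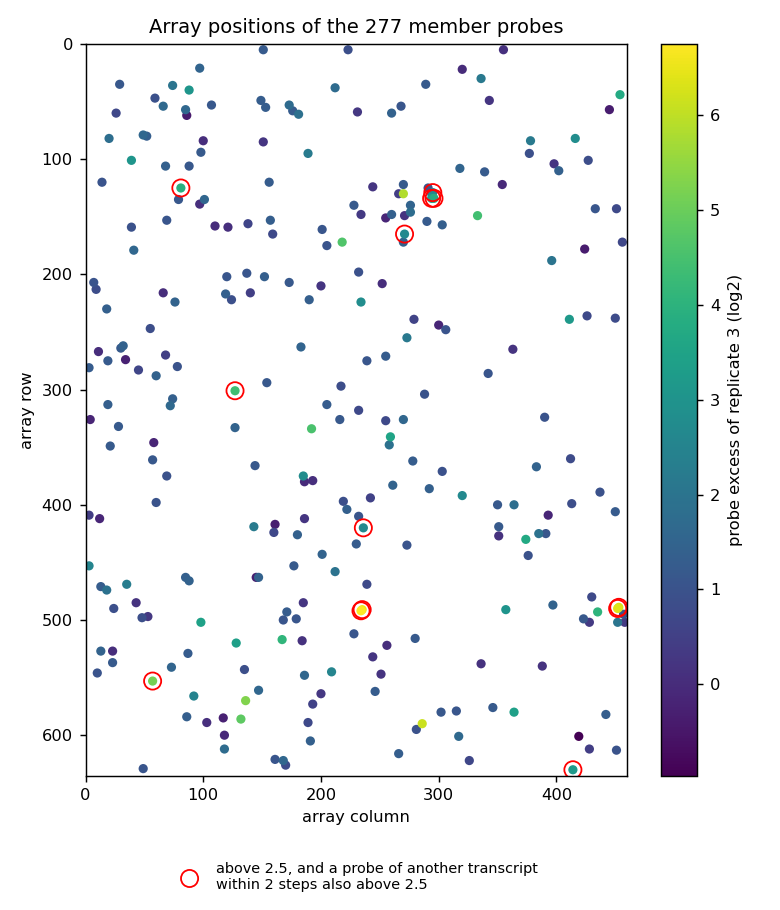
Position of the 277 member probes on the array (column and row, row 0 at the top), coloured by the probe's excess of replicate 3 (log2). Red rings mark the 13 member probes above 2.5 that had a probe of another transcript above 2.5 within 2 steps, and the 3 places described in the text hold several rings that overlap.

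At the threshold the members ended without a gap. The 5 just inside were GRMZM2G416808_T01, GRMZM2G030181_T01, GRMZM2G010920_T01, GRMZM5G830545_T03 and GRMZM5G815369_T03, with excesses of 1.0001 to 1.02. The 5 just outside were GRMZM2G062019_T01, GRMZM2G355906_T05, GRMZM2G096228_T02, GRMZM2G143050_T01 and GRMZM2G015933_T01, with 0.98 to 0.9995. GRMZM2G416808_T01 had 9.50 in replicate 3, against 8.27 and 8.74, and GRMZM2G062019_T01 had 9.22, against 8.21 and 8.24. The step between them was smaller than the differences between replicates 1 and 2.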

How the data were processed

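Cy3-labelled cDNA of 3 pools of Urea+NBPT roots was hybridized to NimbleGen maize arrays with probes from the B73 reference. The authors scanned the arrays and extracted 1 intensity per probe with NimbleScan, and these deposited intensities, on a linear scale, were used with no further correction. The labels name RMA, with no version. Sorted intensities differed by at most 0.183% between arrays, so they appear to be quantile normalized, although the methods call such files raw, and 0 probes differed from the deposited value table. The median intensity was 550.

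The log2 of the authors' intensities was averaged over the probes of each transcript (139000 probes, 59756 transcripts, 39219 genes), of which 62.1% were detected. With 3 arrays the precision of a level is limited. The mean of replicates 1 and 2 was subtracted from replicate 3 with Python 3.11.15, numpy 2.4.6 and pandas 2.3.3, and limma 3.58.1 in R 4.3.3 gave the normexp alternative. No test was run. The steps were tested on simulated data in which all probes of a raised transcript rose alike. Such data cannot show how the rule behaves where 1 probe differs from the others. Members, lists and rules were chosen with earlier results of these data known. The text names the 12 members of largest excess, those with a gene name or in a keyword list, genes with 2 or more members, 5 transcripts on each side of the threshold and the 3 highest members. Others are marked as picked later. Gene names come from the synonyms of a RefSeq table (Zm-B73-REFERENCE-NAM-5.0), which held 72 of the 116 genes, 69 of them with 1 match. The lists were searched in symbols and synonyms only, since the table gives no descriptions. Promoter sequences and coordinates were not used here. The alternatives were other probe summaries, normexp with an offset of 50, scaling to 1 median, the value table, a surface over the array, other detection rules and other thresholds.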

Additional observations from a re-analysis of the deposited data

How the results depend on the processing

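The count of 123 transcripts was within 1.5 times under the median over probes (136), median polish (122), normexp (117), scaling to 1 median (122), the value table (123), removal of a surface over the array (123, of which 106 were shared) and detection in at least 2 arrays (175). For the 92 members with 2 probes, the median and median polish equal the mean, so these members could not drop out there. The median and median polish each shared 109 of the 123. The value table held the same intensities, and sorted intensities hardly differed between arrays. The value table and scaling to 1 median therefore had little room to change the count. The surface was a smooth one over the whole array, so it could not remove differences confined to a few neighbouring probes. The count was 71 with the 99th percentile of the random probes, 366 with no detection filter, 26 with a difference above 1.5 and 40 with every probe above 1. Leaving out replicate 1 or replicate 2 from the baseline gave 220 and 249, and without replicate 3 no value exists. Without the probe of largest excess, an alternative that was chosen after seeing the data and can only lower the excess, the count was 42. Members in the keyword lists numbered 1, and 6 with no detection filter.

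Of the 43 members named by rule, all kept an excess above 0 in the other alternatives except 1 under median polish, which was at 0. Without the probe of largest excess 39 stayed above 0 and 13 above 1, and 4 turned negative. These were GRMZM2G026223_T03 with -0.044, GRMZM2G067985_T15 with -0.021, GRMZM2G138349_T03 with -0.40 and GRMZM2G177970_T01 with -0.18. Of the members picked after their values were seen, GRMZM2G007201_T02 and GRMZM2G462690_T02 turned negative there too, with -0.28 and -0.25. GRMZM2G007201_T02 had -0.19 without replicate 1, and GRMZM2G386674_T01 had -0.03 without replicate 2.

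No paired analysis was possible because all 3 arrays belong to one group. Promoter motifs were not run. Each level rests on 2 or 3 probes, and each replicate on 1 array.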
